A study of Homo sapiens with 9 samples.

Results

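The genes described here take part in what a cell does with pyruvate. They are PC, which encodes pyruvate carboxylase, and PDHA1, PDHB, DLAT and PDHX of the pyruvate dehydrogenase complex. With these go the kinase genes PDK1, PDK2, PDK3 and PDK4 and the phosphatase gene PDP1. All were taken from the count table as the GENCODE rows that carry these 10 symbols. Each symbol matched 1 row, no row of the other RNA catalogues in the table carried any of them, and the 10 rows stood among 112171 annotated features. All 10 passed the filter on low counts.

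PANC-1 is an established human cell line from a pancreatic ductal carcinoma. Every group was kept for 12 h under hypoxia, in medium with rakicidin A at 42 nM, with BE-43547A1 at 41 nM or with DMSO at 0.04% as the vehicle control. Total RNA gave 3 libraries per group, and the comparisons implied by this design ask what each compound does to transcript levels in hypoxic cells. Rakicidin A is a cyclic lipodepsipeptide made by bacteria and is known for killing hypoxic cancer cells more readily than oxygenated ones. The labels do not say whether the compound media also held DMSO. They also do not tie the triplicates to separate cultures, and p-values then measure only how far these libraries vary, which may be technical variation. Cells outside hypoxia were not analysed here, and all libraries come from 1 cell line.

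Pyruvate stands at a branch point. The pyruvate dehydrogenase complex of the mitochondrial matrix turns it into acetyl-CoA, and pyruvate carboxylase, a biotin enzyme of the same compartment, turns it into oxaloacetate. Pyruvate dehydrogenase kinases phosphorylate the E1 alpha subunit and switch the complex off, whereas pyruvate dehydrogenase phosphatases remove those phosphates and switch it on again. PDK1 is a textbook target of the hypoxia-inducible factors, PDK4 is known for its response to fasting, fatty acids and glucocorticoids, and in hypoxic tumour cells pyruvate is known to be diverted to lactate.

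Total counts ranged from 27696394 to 30596594 per DMSO library, from 26203326 to 34870860 for rakicidin A and from 39807220 to 45048999 for BE-43547A1. Levels are given as CPM, the count set against a library total scaled by TMM, and changes as log2 ratios ± SE from edgeR's quasi-likelihood fit to 22353 features. Passing means a Benjamini-Hochberg adjusted p under 0.05 over all of these. Library scaling mattered in these data: with total counts alone the median log2 change of all tested features was -0.38 for rakicidin A and -0.24 for BE-43547A1 against DMSO, and -0.14 between the compounds, instead of -0.023, -0.00026 and -0.022 with TMM. DMSO library 3 stood apart from its replicates, with chi-square values per degree of freedom of 16.5 and 18.3 against 2.77 to 8.99 for the other pairs of replicates. All 6 epithelial markers were measured, and their summed level was 2847 to 3049 CPM in DMSO, 2428 to 2544 CPM with rakicidin A and 3375 to 3638 CPM with BE-43547A1. Of 10 leukocyte, endothelial and stromal markers 5 passed the filter, CD3E was at 0 in all libraries and PECAM1 was not analysed here, with summed levels of 11.2 to 15.4, 7.61 to 9.41 and 9.93 to 12.8 CPM in the same order. None of 7 acinar and islet markers passed the filter on low counts, and their sum stayed at or below 0.0859 CPM.

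After rakicidin A, PC, PDP1, PDK1 and PDHX rose, PDK2, PDK3, PDK4, PDHB and DLAT fell, and PDHA1 did not pass. After BE-43547A1, PC, PDP1 and PDK4 rose, PDK2, PDK3, PDHA1, PDHB, DLAT and PDHX fell, and PDK1 did not pass. The count was thus 4 higher and 5 lower of 10 for rakicidin A, where 64.7% of all tested features passed (31.9% higher and 32.7% lower). It was 3 higher and 6 lower of 10 for BE-43547A1, where 70.4% passed (35.3% higher and 35.1% lower). Between the compounds 6 of the 10 genes were higher and 2 lower with rakicidin A, where 46.6% of all features passed (24.1% higher and 22.5% lower). Libraries did not overlap between the groups for 9, 9 and 8 of the 10 genes in these comparisons, beside 67.5%, 71.6% and 57.6% of all features. Scaled by total counts alone, 3 of the 10 genes were higher and 7 lower with either compound, and 4477 of all features were higher and 11392 lower with rakicidin A. The calls thus came on a background in which a change was common, and no test of the set was made. The median log2 change of the 10 genes was -0.08, -0.17 and 0.25 in the 3 comparisons. Both compounds are compared with the same 3 DMSO libraries, so their values are set side by side and not counted as independent.

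**Figure D1:**
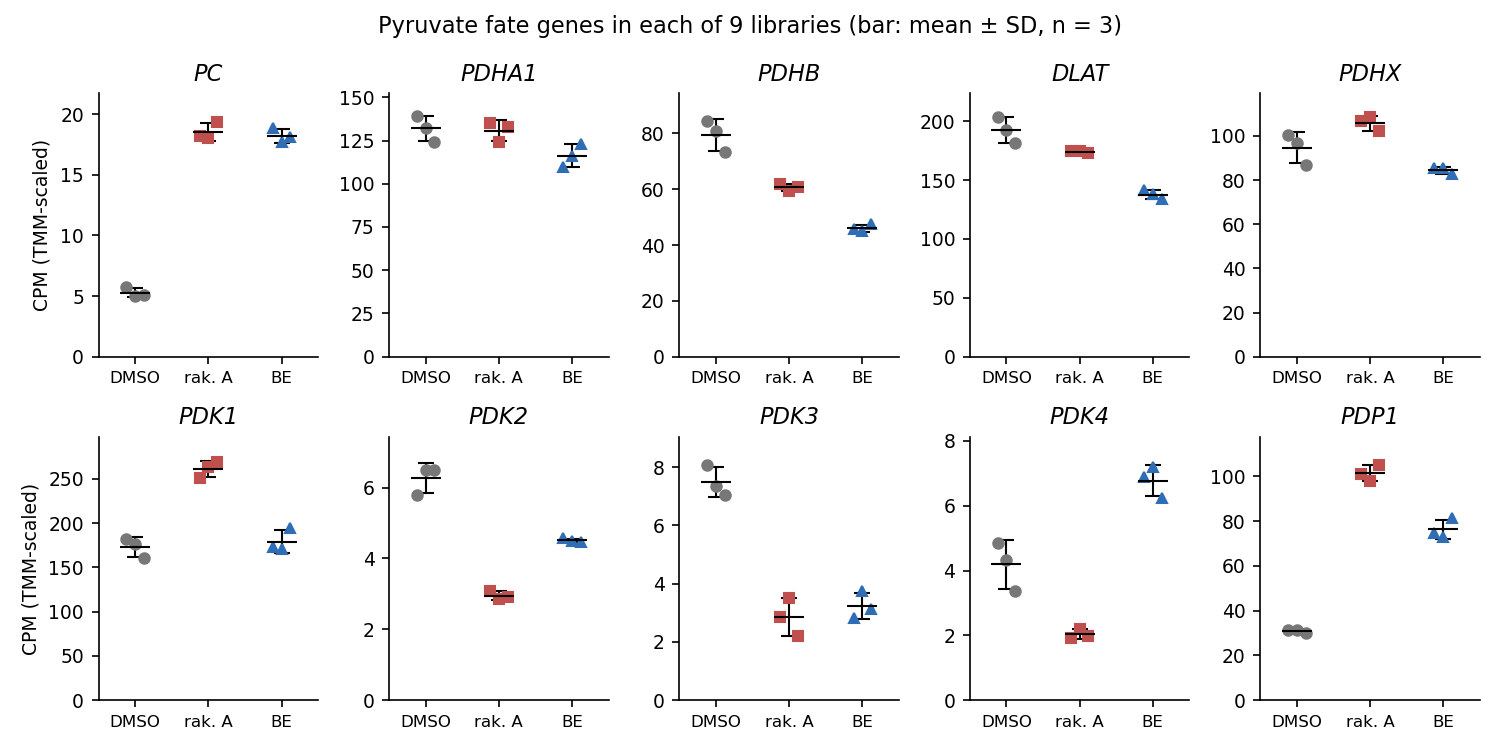
CPM scaled by TMM (y axes, each from 0) of the 10 pyruvate fate genes in the 9 libraries (points; rak. A is rakicidin A and BE is BE-43547A1), with the mean and SD of 3 libraries per group as bars. PC and PDP1 sit far above DMSO with both compounds, whereas PDK4 lies below DMSO with rakicidin A and above it with BE-43547A1.

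Pyruvate carboxylase was more abundant with both compounds, at nearly the same level. PC (ENSG00000173599.9) was measured at 5.72, 5.02 and 5.11 CPM in the DMSO libraries, at 18.2, 18.0 and 19.4 with rakicidin A and at 18.8, 17.7 and 18.1 with BE-43547A1. All 6 compound libraries lay above all 3 DMSO libraries, and the 2 compounds' libraries overlapped. In bulk libraries, here and for the other genes, a larger share of cells with a transcript and more of it per cell cannot be told apart. The mean rose from 5.28 ± 0.377 CPM (SD, n = 3) to 18.5 ± 0.751 with rakicidin A, a 3.50-fold difference (log2 change 1.81 ± 0.09, adjusted p = 1.54e-12), and to 18.2 ± 0.583 with BE-43547A1, a 3.45-fold difference (1.78 ± 0.09, adjusted p = 1.46e-12). The log2 change exceeded that of 93.9% of all tested features with rakicidin A and that of 91.7% with BE-43547A1. Between the compounds, whose doses were 42 and 41 nM, PC did not pass: the log2 difference was 0.02, with a 95% interval of -0.14 to 0.18 (adjusted p = 0.841).

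The exons of PC share 10.5% of their length with those of LRFN4 on the opposite strand, in GENCODE 29. Whether the counting used strand is not given in the sources used here, so reads in that stretch cannot be told apart by these counts. LRFN4 itself had 460 to 520 counts per DMSO library, 143 to 227 with rakicidin A and 282 to 420 with BE-43547A1, whereas PC had 159 to 187, 451 to 563 and 694 to 837. With both compounds the partner's counts lay below those in DMSO and the counts of PC above. Both genes had more counts with BE-43547A1 than with rakicidin A, but these counts are not scaled for depth. Total counts were 39807220 to 45048999 per BE-43547A1 library and 26203326 to 34870860 per rakicidin A library, and scaled levels of PC overlapped between the compounds. Where the reads of the shared stretch were counted was not tested.

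Promoter windows from RefSeq on GRCh38.p14 were taken as the 250 bases before each annotated gene start. PDP1 was left out of this search, and the other 9 of the 10 genes gave 15 windows. They were searched on both strands for ACGTG and GCGTG, the cores of the hypoxia response element, for TGATGNAA, the core of the amino acid response element, and for TGACGTCA, the cyclic AMP response element. ACGTG stood in 7 of the 15 windows, 1 each in PC, PDHB, DLAT, PDHX, PDK1, PDK2 and PDK3, against 18.5% of 35116 windows of all genes. GCGTG stood in 6 windows, against 32.2% of all windows, and neither TGATGNAA nor TGACGTCA stood in any, against 3.14% and 1.65% of all windows. In PDK1 the 2 matches begin 17 and 8 bases before the gene start, and in PC they begin 184 and 163 bases before it. Of PC, with 3 windows, and PDK1, with 2, only the window that holds ACGTG is shown, and their other windows held none of the motifs. The window of PDK4, which holds no ACGTG, is shown because that kinase gene moved in opposite directions with the compounds. The core is not particular to PC and PDK1, since PDHB, DLAT, PDHX, PDK2 and PDK3, whose windows are not shown, hold it too. Capitals mark ACGTG on either strand, which reads CACGT where it lies on the other strand, and each line runs 5′ to 3′ along the gene's strand.
PC, chr11:66958384-66958633, minus strand: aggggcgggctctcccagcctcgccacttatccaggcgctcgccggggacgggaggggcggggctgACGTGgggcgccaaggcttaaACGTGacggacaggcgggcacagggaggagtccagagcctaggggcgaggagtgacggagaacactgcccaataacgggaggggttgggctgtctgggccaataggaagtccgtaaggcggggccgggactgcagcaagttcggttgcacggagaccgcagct
PDK1, chr2:172555840-172556089, plus strand: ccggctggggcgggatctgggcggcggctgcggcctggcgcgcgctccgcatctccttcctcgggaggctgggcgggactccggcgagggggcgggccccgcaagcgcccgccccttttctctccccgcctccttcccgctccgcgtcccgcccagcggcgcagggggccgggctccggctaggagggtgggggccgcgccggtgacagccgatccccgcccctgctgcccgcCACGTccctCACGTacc
PDK4, chr7:95596517-95596766, minus strand: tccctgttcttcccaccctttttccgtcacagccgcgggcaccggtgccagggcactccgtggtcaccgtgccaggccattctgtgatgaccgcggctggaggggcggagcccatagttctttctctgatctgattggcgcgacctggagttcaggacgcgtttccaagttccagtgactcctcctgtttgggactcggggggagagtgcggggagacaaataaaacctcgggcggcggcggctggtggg
A match describes these letters only, since no measurement of factor binding was made here, and every library came from hypoxic cells.

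The genes of the E1 and E2 enzymes and of the E3-binding protein changed less than PC did, and mostly downward with BE-43547A1. PDHA1 (ENSG00000131828.9) encodes the E1 alpha subunit, the protein that the kinases phosphorylate. Its level was 139, 132 and 124 CPM in DMSO, 135, 124 and 133 with rakicidin A and 109.7, 116 and 123 with BE-43547A1. The rakicidin A libraries lay within the range of the DMSO libraries apart from 1 slightly below it, and the BE-43547A1 libraries all lay below both other groups. PDHA1 did not pass with rakicidin A (log2 change -0.01, 95% interval -0.14 to 0.11, adjusted p = 0.852) and fell with BE-43547A1 (-0.18 ± 0.06, adjusted p = 0.0123). Between the compounds it differed by 0.17 ± 0.06 (adjusted p = 0.0303). With total counts alone PDHA1 was at -0.37 after rakicidin A (adjusted p = 1.65e-05), beside the median of -0.38 for all features, and the difference between the compounds did not pass (0.049, adjusted p = 0.511). The fall with BE-43547A1 no longer passed without DMSO library 1, BE-43547A1 library 1 or BE-43547A1 library 2, at adjusted p = 0.0520, 0.114 and 0.0514, nor did the difference between the compounds without rakicidin A library 1 or 3 or BE-43547A1 library 1 or 2, at adjusted p of 0.0742 to 0.176.

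PDHB (ENSG00000168291.8), which encodes the E1 beta subunit, fell with both compounds. It stood at 84.5, 80.9 and 73.2 CPM in DMSO, at 62.0, 59.5 and 60.7 with rakicidin A and at 45.6, 45.0 and 47.5 with BE-43547A1. The 3 groups did not overlap, with BE-43547A1 lowest. The mean fell from 79.5 ± 5.74 CPM to 60.7 ± 1.26 with rakicidin A (log2 change -0.39 ± 0.06, adjusted p = 1.69e-05) and to 46.0 ± 1.28 with BE-43547A1 (-0.79 ± 0.06, adjusted p = 1.32e-09), and the 2 compounds differed (0.40 ± 0.06, adjusted p = 3.16e-05). Of the 4 genes of the complex in this group, PDHB fell furthest with either compound.

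DLAT (ENSG00000150768.11) encodes the E2 enzyme, the dihydrolipoamide acetyltransferase that forms the core of the complex and carries its lipoyl groups. It was at 203, 193 and 182 CPM in DMSO, 175, 174 and 173 with rakicidin A and 142, 138 and 134 with BE-43547A1, again with no overlap between groups. With BE-43547A1 it fell (log2 change -0.48 ± 0.05, adjusted p = 2.76e-07), and the compounds differed by 0.34 ± 0.05 (adjusted p = 5.89e-05). The smaller fall with rakicidin A (-0.15 ± 0.05, adjusted p = 0.026) did not pass without DMSO library 1 or 2, any 1 of the rakicidin A libraries, or BE-43547A1 library 2, at adjusted p of 0.0587 to 0.134, and also failed with no filter on low counts (0.0642) and in the fit to the 6 libraries (0.0576).

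PDHX (ENSG00000110435.7) encodes the E3-binding protein, which docks dihydrolipoamide dehydrogenase to the core. It was at 100.4, 96.7 and 86.8 CPM in DMSO, 107, 108 and 102 with rakicidin A and 85.5, 85.3 and 82.7 with BE-43547A1. All rakicidin A libraries lay above and all BE-43547A1 libraries below the DMSO libraries, the BE-43547A1 libraries by a narrow margin. The log2 change was 0.16 ± 0.06 with rakicidin A (adjusted p = 0.0256) and -0.16 ± 0.06 with BE-43547A1 (adjusted p = 0.0199), and the difference between the compounds was 0.32 ± 0.06 (adjusted p = 0.00021). The direction with rakicidin A depended on the scaling: with total counts alone it was -0.20 (adjusted p = 0.00644), still above the median of -0.38 for all features. The rise passed in 11 of 16 other settings, with an edgeR or DESeq2 adjusted p of up to 0.101 over all of them. Among those where it did not pass were the fits without DMSO library 3 (adjusted p = 0.0909) or rakicidin A library 2 (0.0646). The fall with BE-43547A1 passed in 9 of the 16, and did not pass, among others, without DMSO library 1 or 2 or any 1 of the BE-43547A1 libraries (0.0528 to 0.0879).

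The summed level of the 4 genes of the complex was 499 ± 30.9 CPM in DMSO (SD, n = 3), 471 ± 6.59 after rakicidin A and 385 ± 2.10 after BE-43547A1. The 3 BE-43547A1 libraries lay between 382 and 387 CPM, below the lowest of the other libraries at 466 CPM.

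**Figure D2:**
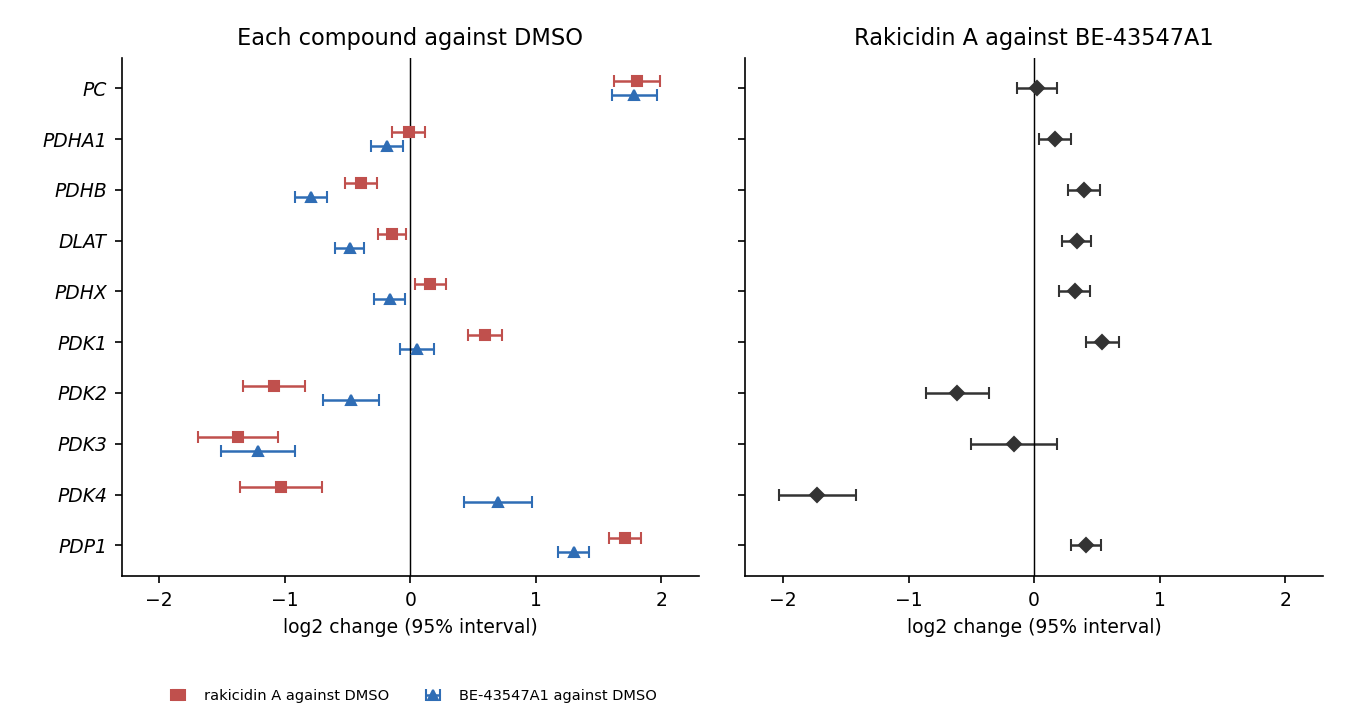
Log2 changes (x axes) of the 10 genes from edgeR's fit, with 95% intervals as bars, each compound against DMSO on the left and rakicidin A against BE-43547A1 on the right. The intervals for PC and PDK3 cross 0 between the compounds, whereas PDK4 has the largest difference of the 10, at -1.73.

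The 4 kinase genes did not move together. PDK1 rose with rakicidin A, PDK2 and PDK3 fell with both compounds, and PDK4 fell with rakicidin A and rose with BE-43547A1. PDK1 (ENSG00000152256.9) was at 182, 176 and 160.0 CPM in DMSO, 251, 263 and 268 with rakicidin A and 172, 171 and 194 with BE-43547A1. The rakicidin A libraries lay above all others, and those of BE-43547A1 overlapped with DMSO. The mean rose from 173 ± 11.3 CPM to 261 ± 8.91 with rakicidin A, a 1.51-fold difference (log2 change 0.60 ± 0.06, adjusted p = 1.45e-07). With BE-43547A1 PDK1 did not pass (0.05, 95% interval -0.08 to 0.19, adjusted p = 0.463), and the difference between the compounds did (0.54 ± 0.06, adjusted p = 1.45e-06). With total counts alone PDK1 was at 0.24 with rakicidin A (adjusted p = 0.00186) and at -0.18 with BE-43547A1 (adjusted p = 0.0106), beside medians of -0.38 and -0.24 for all features.

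PDK2 (ENSG00000005882.7), a kinase found in most tissues, was a low transcript with 68 to 229 counts per library. It was at 5.78, 6.51 and 6.51 CPM in DMSO, 3.09, 2.85 and 2.92 with rakicidin A and 4.57, 4.50 and 4.47 with BE-43547A1. The 3 groups did not overlap, and BE-43547A1 stood between the others. PDK2 fell 2.12-fold with rakicidin A (log2 change -1.08 ± 0.12, adjusted p = 1.85e-07) and 1.39-fold with BE-43547A1 (-0.47 ± 0.11, adjusted p = 0.00063), and the compounds differed (-0.61 ± 0.12, adjusted p = 0.00037). Its exons share 38.6% of their length with SAMD14 on the opposite strand, a gene with 12 to 44 counts per library. Those of PDHA1, which several ratios below are set against, share 21.3% with MAP3K15 on the opposite strand, at 193 to 350 counts. For PDHB, DLAT, PDHX and PDK1 the share with a gene on the opposite strand is 2.99 to 7.63%.

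PDK3 (ENSG00000067992.8), the kinase encoded on the X chromosome, fell with both compounds. It was at 8.07, 7.36 and 7.05 CPM in DMSO, 2.84, 3.52 and 2.19 with rakicidin A and 2.83, 3.73 and 3.14 with BE-43547A1, from 51 to 264 counts per library. All compound libraries lay below all DMSO libraries, and the compounds overlapped. The fall was 2.59-fold with rakicidin A (log2 change -1.37 ± 0.15, adjusted p = 2.18e-07) and 2.32-fold with BE-43547A1 (-1.21 ± 0.14, adjusted p = 3.89e-07). The difference between the compounds was -0.16, with a 95% interval of -0.50 to 0.18 (adjusted p = 0.44), so a difference of moderate size in either direction remained within the error. Only 8.61% of tested features had a lower log2 change with rakicidin A, and 10.9% with BE-43547A1.

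PDK4 (ENSG00000004799.7), the kinase gene that responds to fuel supply in many tissues, separated the compounds. It was at 4.86, 4.33 and 3.38 CPM in DMSO, 1.93, 2.21 and 1.98 with rakicidin A and 6.88, 7.19 and 6.25 with BE-43547A1, from 46 to 306 counts per library. The groups did not overlap: every rakicidin A library lay below and every BE-43547A1 library above the DMSO libraries. PDK4 fell 2.04-fold with rakicidin A (log2 change -1.03 ± 0.16, adjusted p = 1.23e-05) and rose 1.62-fold with BE-43547A1 (0.70 ± 0.13, adjusted p = 9.21e-05). The level with rakicidin A was 3.31-fold below that with BE-43547A1 (-1.73 ± 0.15, adjusted p = 3.22e-08), and 2.11% of tested features had a lower log2 difference. These calls and directions held with total counts alone, at -1.39 and 0.46 against DMSO and -1.85 between the compounds.

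Weighted for transcript length, PDK1 made up most of the kinase transcripts in every library. The CPM per kb of exon of the 4 genes were summed in each library, with lengths from GENCODE 29 on GRCh38. PDK1 has 14883 exon bases there, against 5481 for PDK2, 4951 for PDK3 and 4519 for PDK4, so the weighting lowers its share most. The share of PDK1 was 76.5, 76.5 and 76.2% in DMSO, 91.5, 91.1 and 92.7% with rakicidin A, and 79.8, 78.4 and 82.2% with BE-43547A1. The groups did not overlap, and the share was highest with rakicidin A. PDK3 took 9.97 ± 0.305% in DMSO (SD, n = 3), 3.02 ± 0.700% after rakicidin A and 4.36 ± 0.683% after BE-43547A1. PDK2 took 7.57 ± 0.915%, 2.83 ± 0.206% and 5.49 ± 0.315% in the same order.

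The share of PDK4 was 6.08 ± 0.722% in DMSO, 2.36 ± 0.141% after rakicidin A and 10.03 ± 1.15% after BE-43547A1. By its mean PDK4 was the lowest of the 4 kinase transcripts in DMSO, where its libraries overlapped with those of PDK2, and it came next to PDK1 after BE-43547A1. The length of the longest transcript in place of all exons moved the mean share of PDK1 to 72.6, 90.04 and 76.4%. Summed over the 4 genes without a length, kinase transcripts were at 190.5 ± 12.2 CPM in DMSO, 269 ± 8.69 after rakicidin A and 194 ± 12.4 after BE-43547A1.

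**Figure D3:**
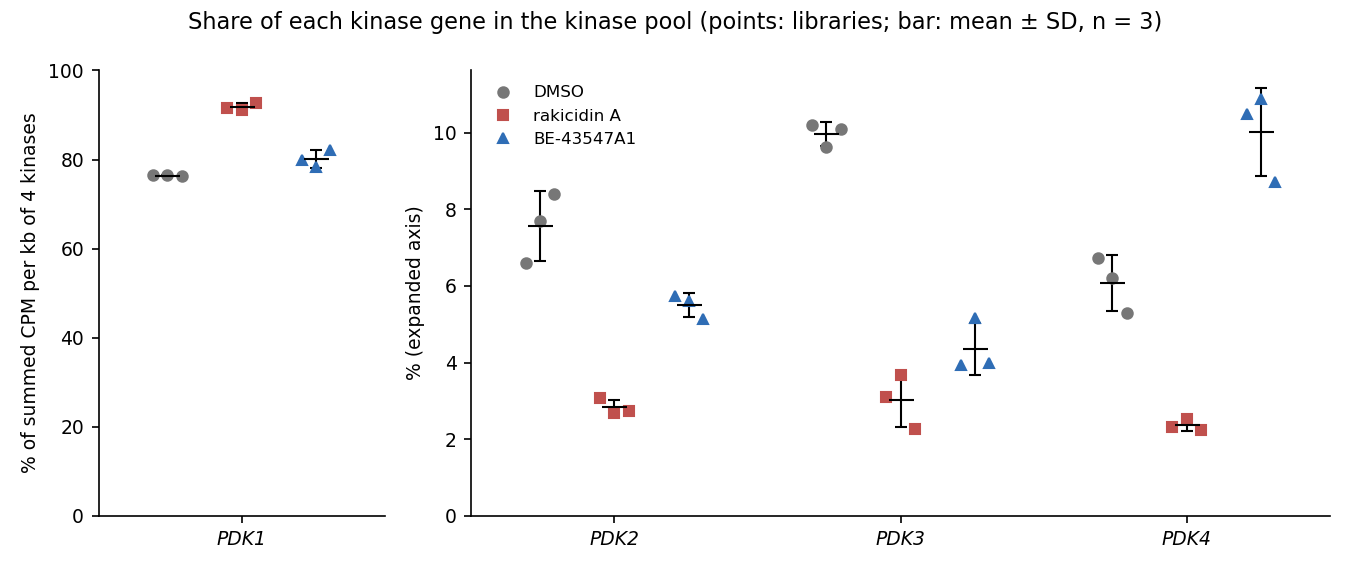
Share of each kinase gene in the summed CPM per kb of PDK1 to PDK4 (y axes in percent, the right panel on an expanded axis), by library (points), with the mean and SD of 3 libraries per group as bars. PDK1 holds 76.2 to 92.7% in all libraries, and PDK4 holds its largest share after BE-43547A1.

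PDP1 (ENSG00000164951.11), which encodes a catalytic subunit of pyruvate dehydrogenase phosphatase, the enzyme that opposes the kinases, rose with both compounds. It was at 31.5, 31.2 and 30.1 CPM in DMSO, 101, 97.9 and 105 with rakicidin A and 74.6, 72.9 and 81.1 with BE-43547A1. The 3 groups did not overlap, with rakicidin A highest. The mean rose from 30.9 ± 0.754 CPM to 101 ± 3.61 with rakicidin A, a 3.27-fold difference (log2 change 1.71 ± 0.06, adjusted p = 1.57e-14), and to 76.2 ± 4.34 with BE-43547A1, a 2.46-fold difference (1.30 ± 0.06, adjusted p = 8.07e-13). Rakicidin A exceeded BE-43547A1 by a log2 difference of 0.41 ± 0.06 (adjusted p = 1.11e-05). With total counts alone the changes were 1.35 and 1.06, and both passed.

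Ratios of CPM per kb within a library do not depend on the scaling between libraries. Each was compared by an exact two-sided permutation test, which with 3 libraries against 3 cannot give a p below 0.1, or 0.117 after Benjamini-Hochberg adjustment over the 21 tests made. PC to PDHA1 had a geometric mean of 0.0303 in DMSO, 0.107 after rakicidin A and 0.119 after BE-43547A1, which is 3.54-fold and 3.92-fold the DMSO ratio. No library of a compound overlapped with DMSO (exact p = 0.1 for each). The compounds did not overlap either, and the ratio with rakicidin A was 0.904-fold that with BE-43547A1 (exact p = 0.1). The carboxylase transcript thus stayed far below the dehydrogenase transcript per length in every library, with 0.130 as the highest ratio. PDP1 to the 4 kinases summed was 0.364 in DMSO, 0.948 after rakicidin A and 0.906 after BE-43547A1, or 2.60-fold and 2.49-fold (exact p = 0.1 for each). The compounds overlapped in this ratio (exact p = 0.3, adjusted p = 0.315).

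The 4 kinases summed, set against PDHA1, had a ratio of 0.517 in DMSO, 0.656 after rakicidin A and 0.580 after BE-43547A1, with no overlap between any of the groups. PDK1 alone to PDHA1 was 0.395, 0.603 and 0.465 in that order, also without overlap. PDHB to PDHA1 was 0.574, 0.443 and 0.377 in that order. DLAT to PDHA1 was 1.36, 1.24 and 1.10, and in these ratios too no groups overlapped (exact p = 0.1 for each). PDHX to PDHA1 was 0.857, 0.967 and 0.869, where BE-43547A1 overlapped with DMSO (exact p = 0.8, adjusted p = 0.8) and with rakicidin A (exact p = 0.2, adjusted p = 0.221).

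**Figure D4:**
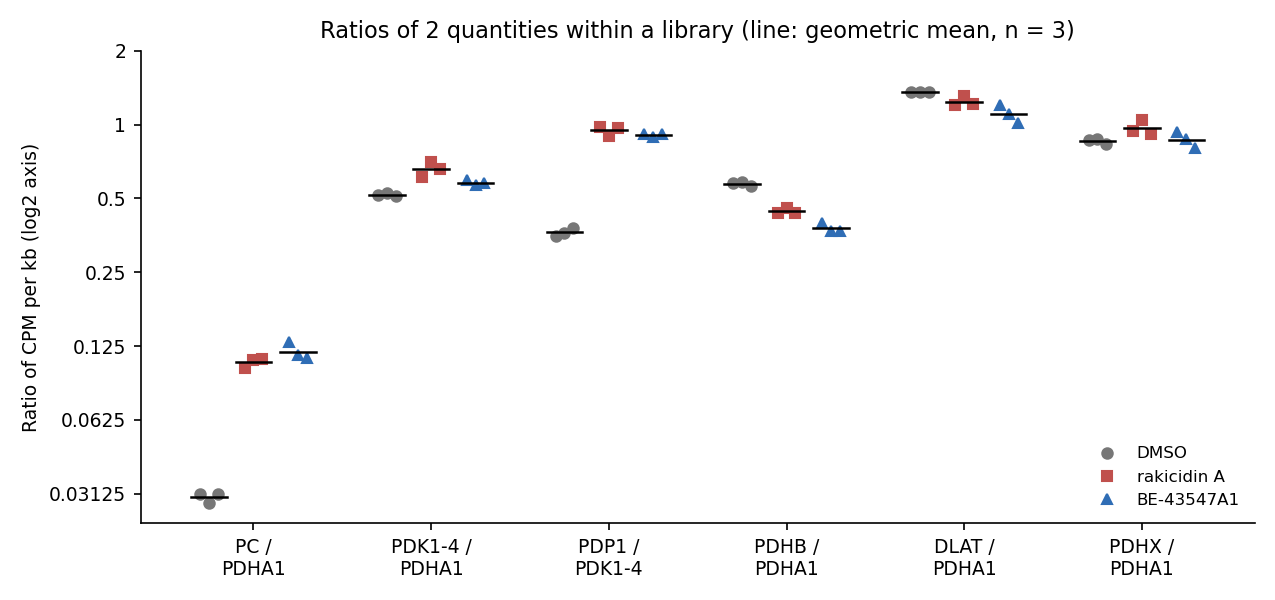
Ratios of CPM per kb of 2 quantities in the same library (y axis, log2 scale) for 6 pairs, with points for libraries and a line for the geometric mean of 3 libraries. The ratios of PC to PDHA1 and of PDP1 to the summed kinases lie well above DMSO with both compounds.

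Per kb of exon, the order of the 10 transcripts in DMSO ran from DLAT (39.9 CPM per kb) through PDHA1 (29.4), PDHX (25.2), PDHB (16.9), PDK1 (11.6), PDP1 (5.52), PDK3 (1.51), PDK2 (1.14) and PDK4 (0.927) to PC (0.892). Libraries overlapped between PDK2 and PDK4 and between PDK4 and PC, and between no other neighbours in that order. PC, the lowest of the 10 in DMSO, stood seventh with either compound, at 3.12 CPM per kb after rakicidin A and 3.07 after BE-43547A1. PDP1 moved past PDHB to 18.1 and 13.6 CPM per kb, where its libraries overlapped with those of PDK1 at 17.5 and 12.0. The lowest transcript was PDK4 at 0.451 CPM per kb after rakicidin A and PDK3 at 0.653 after BE-43547A1. With the longest transcript as the length, PDK4 was lowest in DMSO with PC just above it, and PDHX was highest after rakicidin A and PDHA1 after BE-43547A1.

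The genes whose log2 CPM over the 9 libraries followed PC, PDK1, PDK2, PDK3 or PDK4 most closely were sought among 11730 GENCODE genes with a mean of at least 2 CPM, as a description with no test, since the points share 3 groups that differ in depth. For PC they were CYLD (Pearson r = 0.9997), ZNF165 (0.998) and FAM210A (0.998), and 245 genes had an r above 0.99, so the pattern of PC was a common one. For PDK1 they included SPRTN (0.994) and FYTTD1 (0.994), with 19 genes above 0.99. For PDK2 they were STMN3 (0.993), RYR1 (0.991) and HSPA8P9 (0.989), the last a pseudogene that can share reads with its parent gene and is therefore uncertain.

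For PDK3 the closest genes were RPP25 (0.984), TRIM9 (0.984) and SPIN4 (0.984), and no gene had an r above 0.99. For PDK4 they were MAPK11, the 1 gene with an r above 0.99, TALDO1 (0.984) and HSPA1B (0.983). HSPA1B has a near-identical copy, so its counts are uncertain. Its log2 changes were -0.96 with rakicidin A and 0.74 with BE-43547A1, beside -1.03 and 0.70 for PDK4. Those of MAPK11 were -0.54 and 0.28, and those of TALDO1 -0.23 and 0.16.

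The rest of the complex and its phosphatases was down or did not pass. Of 4 further genes 3 were measured, and 2 fell with each compound, where 32.7% of all tested features fell with rakicidin A and 35.1% with BE-43547A1. No test of this list or of those below was made. DLD, the E3 enzyme that reoxidises the lipoyl groups set in motion by DLAT, fell with rakicidin A (-0.27 ± 0.05, adjusted p = 0.000271) and BE-43547A1 (-0.45 ± 0.05, adjusted p = 5.98e-07). PDP2, the other catalytic phosphatase subunit, fell with rakicidin A (-0.36 ± 0.09, adjusted p = 0.00279) and was at -0.15 with BE-43547A1 (adjusted p = 0.148), opposite to the rise of PDP1. PDPR, the regulatory subunit of the phosphatase, was at 0.06 with rakicidin A (adjusted p = 0.515) and fell with BE-43547A1 (-0.28 ± 0.08, adjusted p = 0.00525). PDHA2, the testis form of the E1 alpha subunit, had at most 2 counts in any library.

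Enzymes next to PC moved in both directions. HLCS, the ligase that attaches biotin to PC, fell (log2 changes of -0.61 ± 0.08 with rakicidin A and -0.87 ± 0.08 with BE-43547A1), whereas BTD, which frees biotin for reuse, rose by 0.94 ± 0.10 and 0.86 ± 0.10. Among all tested features 31.9% rose and 32.7% fell with rakicidin A, and 35.3% and 35.1% with BE-43547A1. Of the 8 biotin genes, PC left out, 2 rose and 4 fell with rakicidin A and 1 rose and 3 fell with BE-43547A1 (1 and 6 for either compound with total counts alone). ACACB, an acetyl-CoA carboxylase, fell by similar amounts (-1.30 and -1.33), and MCCC2, of methylcrotonyl-CoA carboxylase, fell less (-0.17 and -0.39). ACACA, the other acetyl-CoA carboxylase, fell with rakicidin A (-0.39) and was at 0.09 with BE-43547A1 (adjusted p = 0.162). PCCA, of propionyl-CoA carboxylase, rose with rakicidin A (0.27, adjusted p = 0.0164), a call lost with total counts alone (-0.083, adjusted p = 0.450).

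Among genes that handle citrate and oxaloacetate, the product of PC, the largest change was that of GOT1. GOT1, the cytosolic aspartate aminotransferase, went from 73.3 ± 1.25 CPM in DMSO to 438 ± 16.8 with rakicidin A (2.58 ± 0.06, adjusted p = 2.34e-17) and 274 ± 9.23 with BE-43547A1 (1.90 ± 0.06, adjusted p = 1.32e-15). SLC25A12, the mitochondrial carrier that exchanges aspartate for glutamate, fell (-0.92 and -1.29). SLC25A1, the citrate carrier, fell (-0.86 and -0.37), as did the aconitase ACO1 (-0.22 and -0.33). ACLY, which splits citrate into acetyl-CoA and oxaloacetate, fell with rakicidin A (-0.37), as did the 2-oxoglutarate carrier gene SLC25A11 (-0.30). The shares of all tested features were 31.9% higher and 32.7% lower with rakicidin A, and 35.3% and 35.1% with BE-43547A1. Of 12 genes 2 rose and 5 fell with rakicidin A and 2 rose and 6 fell with BE-43547A1, against 1 and 10 for either compound with total counts alone.

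PCK2, the mitochondrial enzyme that turns the oxaloacetate made by PC into phosphoenolpyruvate, rose (0.95 ± 0.09 and 0.83 ± 0.09), and GPT2, the mitochondrial alanine aminotransferase, rose too (0.94 ± 0.06 and 0.41 ± 0.06). ME1, a malic enzyme, rose by 0.38 and 0.35, which did not pass with total counts alone (adjusted p = 0.738 and 0.113). The pyruvate kinase gene PKM (-0.20) and the mitochondrial malic enzyme gene ME2 (-0.21) fell with rakicidin A and did not pass with BE-43547A1 (-0.00 and -0.09, adjusted p = 0.939 and 0.141). Across all tested features 31.9% rose and 32.7% fell with rakicidin A, and 35.3% and 35.1% with BE-43547A1. In this list of genes that make or use pyruvate, 6 of 9 were measured, with 3 rising and 2 falling after rakicidin A and 3 rising after BE-43547A1. The counts were 2 rising and 3 falling for either compound with total counts alone.

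On the lactate side, SLC16A3, a lactate exporter known as a hypoxia gene, fell from 257 ± 7.33 CPM to 132 ± 10.8 with rakicidin A (-0.96 ± 0.06) and 158 ± 5.18 with BE-43547A1 (-0.70 ± 0.06). LDHB fell (-0.51 and -0.26), and LDHA did not pass (0.07 and 0.13, adjusted p = 0.416 and 0.0997). BSG, a partner protein of the lactate transporters, fell with rakicidin A (-0.19) and rose with BE-43547A1 (0.22), where it was at -0.016 with total counts alone (adjusted p = 0.817). LDHC, the testis form, rose with BE-43547A1 (1.99 ± 0.33) from 5 to 6 counts per library in DMSO to 25 to 30. The mitochondrial pyruvate carrier gene MPC1 rose with rakicidin A (0.31, adjusted p = 0.0129), a call lost with total counts alone (-0.050, adjusted p = 0.675). Among all tested features 31.9% rose and 32.7% fell with rakicidin A, and 35.3% and 35.1% with BE-43547A1. Of 9 measured genes of this list 1 rose and 3 fell with rakicidin A and 2 rose and 2 fell with BE-43547A1. With total counts alone none rose and 6 fell with rakicidin A, LDHA among them (-0.29, adjusted p = 0.00118), and 1 rose and 4 fell with BE-43547A1.

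The sister complexes use the same kind of lipoyl group as pyruvate dehydrogenase. Among them the branched-chain 2-oxoacid dehydrogenase also uses the same kind of kinase and phosphatase. PPM1K, the phosphatase of the branched-chain 2-oxoacid dehydrogenase and thus the counterpart of PDP1, rose from 4.05 ± 0.854 CPM to 22.8 ± 0.308 with rakicidin A (2.49 ± 0.13) and 11.9 ± 1.62 with BE-43547A1 (1.56 ± 0.13). BCKDHB and DBT, subunit genes of that complex, fell with both (-0.75 and -0.85, -0.48 and -0.97). Of the lipoylation genes, LIPT2, with 93 to 102 counts per library in DMSO and 15 to 22 with the compounds, had log2 changes of -2.03 and -2.74, and LIAS had -0.62 and -1.41. LIPT1 did not pass with rakicidin A (-0.10, adjusted p = 0.513) and fell with BE-43547A1 (-0.95). Across all tested features 31.9% rose and 32.7% fell with rakicidin A, and 35.3% and 35.1% with BE-43547A1. Of 10 genes of this list 1 rose and 4 fell with rakicidin A and 1 rose and 6 fell with BE-43547A1, with medians of -0.15 and -0.55. For total counts alone, 1 rose and 8 fell with rakicidin A, and 1 rose and 7 fell with BE-43547A1.

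Transcription factor genes known to act on the kinase or carboxylase genes moved in both directions. Of 11 measured, 6 rose and 2 fell with rakicidin A and 7 rose and 3 fell with BE-43547A1, against 5 and 5, and 6 and 4, with total counts alone. Of all tested features 31.9% rose and 32.7% fell with rakicidin A, and 35.3% and 35.1% with BE-43547A1, and no test of the list was made. FOXO3, known to act on PDK4, had the largest change of the list with each compound (1.97 ± 0.06 and 1.68 ± 0.06). HIF1A, which encodes a hypoxia-inducible factor known to act on PDK1, rose too (1.28 ± 0.05 and 1.10 ± 0.05). PPARA (1.13 and 0.98), FOXO1 (1.07 and 1.19) and EPAS1 (0.74 and 0.59) rose with both compounds. NR3C1, the glucocorticoid receptor gene, rose with rakicidin A (0.21) and fell with BE-43547A1 (-0.21), and with total counts alone it fell with both (-0.15 and -0.44). USF1 (-0.60 and -0.51) and USF2 (-0.62 and -0.22) fell.

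**Figure D5:**
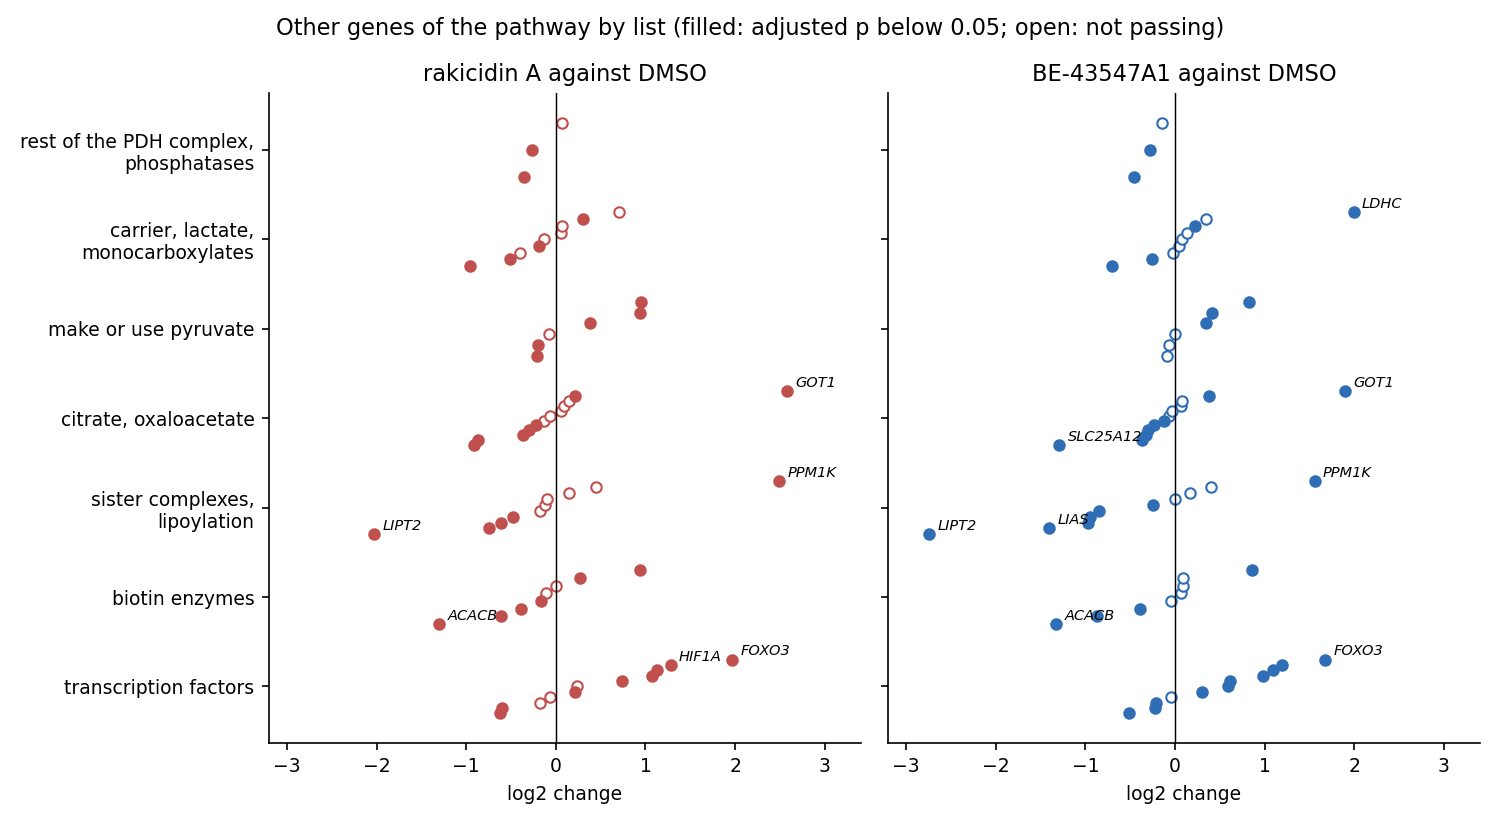
Log2 changes (x axes) of the measured genes of 7 lists around pyruvate, each point 1 gene, filled where the adjusted p from edgeR was below 0.05, with rakicidin A against DMSO on the left and BE-43547A1 against DMSO on the right. GOT1 and PPM1K lie furthest to the right with rakicidin A, and LIPT2 furthest to the left with both compounds.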

How the data were processed

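Counts per feature for 9 libraries (paired ends of 76 bases, total RNA) were used as deposited. Per the submitters' processing notes the authors used TopHat2 and HTSeq and the build GRCh37 (hg19); the strand setting is not given in the sources used here. These deposited counts cover GENCODE genes and other RNA catalogues, and how reads in overlapping features were shared is not given. Groups follow the sample titles.

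All 9 libraries were fitted with edgeR 4.0.16 (R 4.3.3): filterByExpr, TMM factors (0.890 to 0.898 for rakicidin A, 0.963 to 0.989 for BE-43547A1, 1.145 to 1.153 for DMSO), 1 mean per group, 6 residual degrees of freedom, quasi-likelihood F test, Benjamini-Hochberg adjustment over 22353 features. Log CPM used a prior count of 2. Intervals are 95%. The steps were tested on simulated data in which few genes changed. In the real data most features passed against DMSO, so the simulation does not check the scaling used here.

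The members and lists were chosen with earlier results of these data known. All 10 members are named; of each of 7 pathway lists, up to 4 genes with the smallest product of both compounds' p-values against DMSO, and those passing in a direction with 5 or fewer. LIPT1, LDHA, FOXO1 and PDHA2 were added after their values were seen. A few genes that these rules name are not reported here. Lengths come from GENCODE 29 (GRCh38), promoters from RefSeq (GRCh38.p14). Sequences of proteins were not used here. Alternatives were RLE scaling, total counts alone, no filter, DESeq2 1.42.0, the 6 libraries of a comparison, a replicate block, thinning to 26203326 counts, and leaving out each library.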

Additional observations from a re-analysis of the deposited data

Results flagged for a closer look

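Genes were flagged if they passed in opposite directions with the 2 compounds against the same DMSO libraries and also passed between the compounds. The pass between the compounds was thus part of the rule and is no separate support. PDK4 met this rule. The log2 change was -1.03 ± 0.16 with rakicidin A and 0.70 ± 0.13 with BE-43547A1, and the direct difference was -1.73 (edgeR, adjusted p = 3.22e-08). Every rakicidin A library lay below and every BE-43547A1 library above the 3 DMSO libraries, and over the 16 other settings the direct difference ran from -1.85 to -1.68.

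PDHX was picked out in the same way, with changes of 0.16 ± 0.06 and -0.16 ± 0.06 and a direct difference of 0.32 (edgeR, adjusted p = 0.00021). The direct difference passed in all 16 other settings, from 0.20 to 0.36. Against DMSO the rise with rakicidin A passed in 11 of these settings and the fall with BE-43547A1 in 9. The rise with rakicidin A became a fall of -0.20 with total counts alone, where PDHX fell with both compounds.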

How the results depend on the processing

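Each of the 30 log2 changes of the 10 genes was recomputed under 16 alternatives: 22 kept their direction and their side of the threshold under all 16, and of 480 values 440 did so, 28 no longer passed, 1 newly passed and 11 changed sign. With total counts alone, which place the median of all features below 0, PDHX with rakicidin A was at -0.20, PDK1 with BE-43547A1 at -0.18 and PC between the compounds at -0.099. That setting also called 4477 features higher and 11392 lower with rakicidin A, in place of 7141 and 7314. PDHA1 with rakicidin A, which did not pass, ran from -0.056 to 0.039 with a library left out: it was at 0.0068 in the fit to the 6 libraries of the comparison, at 0.029 without DMSO library 1, 0.039 without rakicidin A library 2, 0.0027 without BE-43547A1 library 2 and 0.0022 without BE-43547A1 library 3. PDK1 with BE-43547A1 ran from -0.0070 (without DMSO library 3) to 0.10. PC between the compounds was at -0.0025 with no filter on low counts and ran from -0.0010 (without rakicidin A library 3) to 0.050 with a library left out. PDHX with rakicidin A no longer passed in 4 settings and PDHA1 between the compounds in 6.

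Leaving out each library gave 3 to 4 of the 10 genes higher and 4 to 5 lower with rakicidin A, 3 higher and 4 to 6 lower with BE-43547A1, and 5 to 6 higher and 2 lower between the compounds. Same-numbered libraries had correlations of their deviations from -0.057 to 0.12, and differently numbered libraries from -0.097 to 0.092. The replicate numbers thus gave no clear pairing, and the labels do not say whether a number marks a shared culture or day. With the replicate number as a block 14359, 15670 and 10347 features passed in the 3 comparisons, in place of 14455, 15738 and 10423, and the 10 genes kept 4 higher and 5 lower, 3 and 6, and 6 and 2. DESeq2 gave the same counts of the 10 genes.

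PDK2, PDK3 and PDK4 rest on 46 to 306 counts per library, which limits the precision of their changes.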
